A study of Rattus norvegicus with 24 samples.

Results

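Complement C1q and the macrophage were followed through 10 genes of the rat urethra, namely the 3 chains of C1q (C1qa, C1qb, C1qc) and 7 receptors and markers of macrophages (Mrc1, Cd163, Cd68, Csf1r, Adgre1, Cd14, Aif1). They were taken by symbol from a table of 32883 genes. Each of the 10 symbols was found, and each passed the filter on low values. Urethral RNA came from 12-week-old virgin female Sprague-Dawley rats, wild type per the labels, 3d or 7d after simulated vaginal delivery (SVD), in which the pudendal nerve is crushed and the vagina distended. About 1 h later the rats received into the aorta either saline, allogeneic mesoangioblasts (MABs allo) or such cells made to overexpress VEGF (MABs allo-VEGF), with 4 samples in each of the 6 groups. Mesoangioblasts are vessel-associated progenitor cells, and here they were alkaline phosphatase-positive cells grown from hind-limb muscle of a 3-week-old donor rat and given to other rats. The VEGF cDNA was carried by a lentiviral vector under the SFFV promoter together with a truncated CD34, and the study's methods describe an eGFP and luciferase vector for tracking MABs. Saline rats had the same injury, and no uninjured urethra was part of the comparison. Of the MABs allo-VEGF samples at 7d, replicates 6 and 7 are labelled as recovered.

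C1q is the recognition unit of the classical complement pathway. It is built from A, B and C chains, binds antibody, dying cells and debris, and carries the proteases C1r and C1s. Most complement proteins are made by the liver, whereas C1q in tissue is made largely by macrophages, so that its chains serve as markers of these cells. After injury macrophages clear debris and later take part in repair, and their survival depends on signalling through CSF1R. The 3 C1q genes lie next to each other on rat chromosome 5, in the order C1qb, C1qc, C1qa in the RefSeq annotation of GRCr8.

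The promoters of C1qb and C1qa are shown because these C1q genes had an entry in the RefSeq promoter table. C1qc, which lies between them, had none. Each stretch is 300 bases, 250 before and 50 after the start of the gene, from RefSeq on GRCr8 and not on the build of the counts, written 5′ to 3′ on the strand of the gene. The motif searched was GAGGAA, or TTCCTC on the other strand, the core bound by PU.1 (gene Spi1), a transcription factor of the myeloid lineage. Capitals mark its matches.
C1qb, chr5:154407778-154408077, minus strand: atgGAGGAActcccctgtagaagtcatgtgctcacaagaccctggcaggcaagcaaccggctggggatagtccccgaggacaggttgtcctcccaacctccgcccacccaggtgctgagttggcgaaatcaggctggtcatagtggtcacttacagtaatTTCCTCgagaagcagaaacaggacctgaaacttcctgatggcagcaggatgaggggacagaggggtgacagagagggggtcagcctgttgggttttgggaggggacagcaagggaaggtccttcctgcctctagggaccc
C1qa, chr5:154419884-154420183, minus strand: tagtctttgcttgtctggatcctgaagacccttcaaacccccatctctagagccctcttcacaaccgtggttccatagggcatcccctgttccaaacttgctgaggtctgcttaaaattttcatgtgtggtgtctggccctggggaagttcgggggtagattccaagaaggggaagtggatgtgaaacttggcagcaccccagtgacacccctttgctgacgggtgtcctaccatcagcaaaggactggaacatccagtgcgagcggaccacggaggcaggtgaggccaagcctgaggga
The C1qb stretch held 2 matches and the C1qa stretch 0. The RefSeq table held a promoter for 8 of the 10 genes (C1qc and Aif1 were not listed), of which 6 had at least 1 match, as had 27.6% of all 33469 promoters of this length. A match is a run of letters and was not tested as a binding site.

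Values are normalized gene counts, the reads of a gene divided by the size factor of its sample. A sample had 2170695 to 10166052 reads on genes. Depth was lowest at 3d after MABs allo (2170695 to 4491900 reads) and MABs allo-VEGF (3042531 to 4261098 reads). Each sample of the other groups had at least 4851797 reads. Cell treatment and depth can therefore not be told apart where these groups are compared with saline at 3d or with 7d. Log2 fold changes are on the scale of log2(normalized gene count + 1), and limma was run over 16287 genes. A differentially expressed gene (DEG) had to pass 0.05 after adjustment and differ by more than 1 on this scale. The members held 0.765 to 15.3 of 10000 reads per sample. The tissue of single samples varied. Saline 3d replicate 8 had a summed count of 7 epithelial genes of 780.0, against 11718 to 16618 in the other saline samples at 3d, and a summed count of 5 smooth muscle genes of 22471 against 88342 to 165791. MABs allo-VEGF 3d replicate 2 likewise had 1442 for the epithelial genes against 10758 to 28003. Over all tested genes each of these 2 samples was the least like its group, with a mean Pearson r of 0.876 and 0.856 to the other samples. They were also the highest of their group in 8 and 6 of the 10 genes. In urethral tissue taken whole, fewer cells of a type and less RNA per cell cannot be told apart.

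The C1q chains had their lowest group mean after MABs allo at 3d. In the sentences that follow, samples stand in the order of replicates 6, 8, 9 and 10 for saline at 3d, 1 to 4 for both MABs groups at 3d, 1, 2, 3 and 5 for saline at 7d, 7.2, 9, 11 and 13 for MABs allo at 7d, and 6, 7, 11 and 12 for MABs allo-VEGF at 7d. C1qb encodes the B chain. At 3d its counts were 2799, 5519, 3903 and 4782 after saline, 192, 2533, 859 and 1297 after MABs allo, and 1222, 3775, 2275 and 2591 after MABs allo-VEGF. All 4 MABs allo samples lay below all 4 saline samples, and the MABs allo-VEGF samples overlapped both groups. At 7d C1qb counts were 5956, 7562, 6434 and 5468 after saline, 4807, 2652, 5361 and 10973 after MABs allo, and 5155, 2273, 3398 and 2434 after MABs allo-VEGF. MABs allo spanned the widest range at 7d, and the MABs allo-VEGF samples lay below those of saline.

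C1qa encodes the A chain. Its counts at 3d were 1171, 2799, 1687 and 1562 after saline, 234, 1258, 545 and 434 after MABs allo, and 524, 1709, 1186 and 1589.6 after MABs allo-VEGF. At 7d they were 2155, 2362, 847 and 1399 after saline, 1635, 679, 1525 and 2054 after MABs allo, and 1092, 790.1, 1111 and 798 after MABs allo-VEGF. MABs allo replicate 2 reached the saline range at 3d, and the 3 other MABs allo samples stayed below it. C1qa is among the genes the study displays from these samples, so that its values are no independent evidence.

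C1qc encodes the C chain. Counts at 3d were 1505, 3971, 3084 and 3125 after saline, 220.1, 2117, 868 and 841 after MABs allo, and 892, 3009, 1801 and 3019 after MABs allo-VEGF. At 7d they were 5489.6, 5977, 4592 and 3978 after saline, 4036, 1937, 3692 and 8611 after MABs allo, and 3642, 1723, 1927 and 1841 after MABs allo-VEGF. C1qc had the same order of group means as C1qb, from saline at 7d down to MABs allo at 3d.

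**Figure D1:**
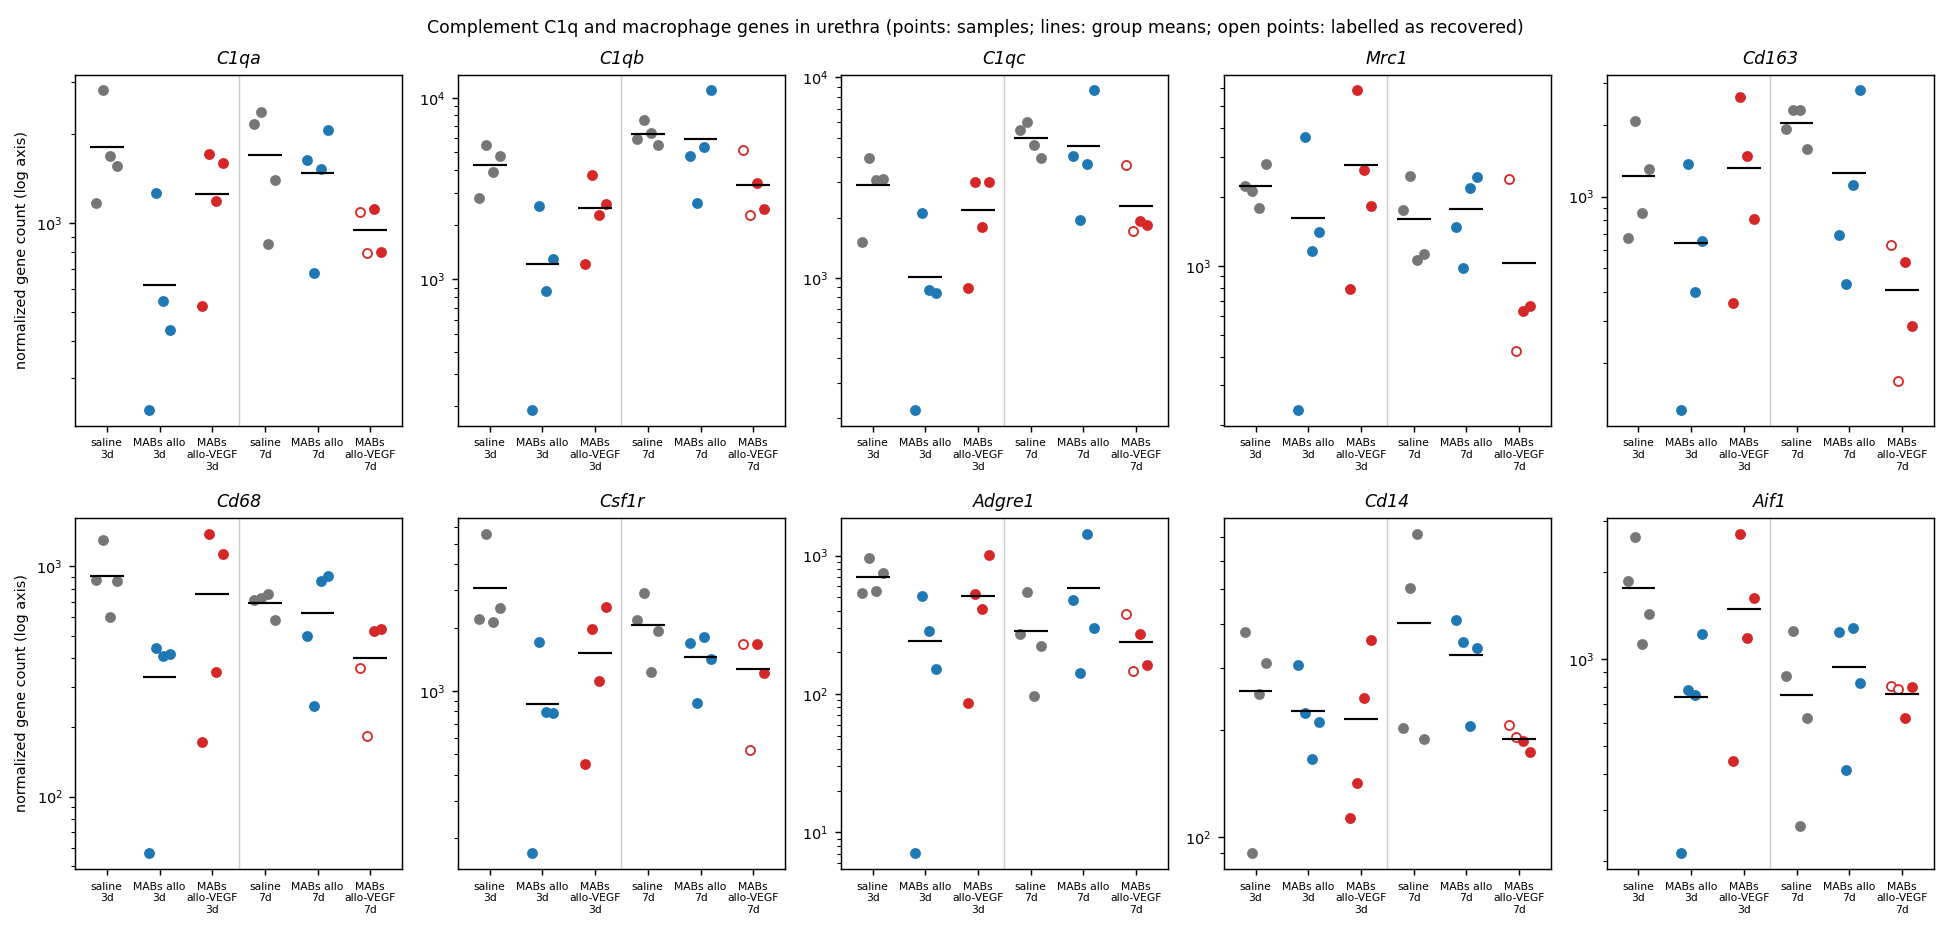
Normalized gene count (log axis) of the 10 genes in the 24 samples by group, with a line at each group mean and open points for the samples labelled as recovered. In 9 of the 10 panels MABs allo replicate 1 is the lowest MABs allo point at 3d, and in the Cd14 panel it is the highest.

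Among the receptors, Csf1r encodes the receptor for CSF1 and IL34, on which macrophages depend. At 3d Csf1r counts were 2189.9, 5569.8, 2126 and 2474 after saline, 170.4, 1707, 794 and 787 after MABs allo, and 449, 1967, 1115 and 2498 after MABs allo-VEGF. At 7d they were 2161, 2915, 1229 and 1924 after saline, 1682, 874, 1797 and 1419 after MABs allo, and 1672, 528, 1676 and 1214 after MABs allo-VEGF. All MABs allo samples lay below saline at 3d, and the groups overlapped at 7d.

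Cd163 encodes the scavenger receptor for haemoglobin bound to haptoglobin. Counts at 3d were 668, 2069.6, 854 and 1302 after saline, 128, 1373, 397 and 651 after MABs allo, and 357, 2609, 1478 and 806 after MABs allo-VEGF. At 7d they were 1928, 2300.0, 2304 and 1579 after saline, 691, 430.5, 1119 and 2785 after MABs allo, and 628, 168, 534 and 287 after MABs allo-VEGF. The lowest group moved from MABs allo at 3d (mean 637 ± 535, SD, n = 4) to MABs allo-VEGF at 7d (404 ± 213, SD, n = 4), where each sample lay below each saline sample.

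Mrc1 encodes the mannose receptor of tissue macrophages. Its counts ranged from 234 to 3660.0 after MABs allo and from 789 to 5842 after MABs allo-VEGF at 3d, against 1787 to 2777 after saline. At 7d they ranged from 1058 to 2479 after saline, from 980.1 to 2436 after MABs allo and from 422 to 2391 after MABs allo-VEGF. The MABs groups at 3d were the most spread, with an SD of 1453 and 2181 against 412 in saline.

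Cd68 encodes a lysosomal glycoprotein of phagocytes. At 3d counts were 871, 1301, 604 and 859 after saline, 56.8, 443, 406 and 418 after MABs allo, and 173, 1384, 348 and 1135 after MABs allo-VEGF. The MABs allo samples lay below those of saline. At 7d the ranges were 582 to 760.2 after saline, 248 to 909 after MABs allo and 183 to 536 after MABs allo-VEGF, and the last lay below saline without overlap.

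Adgre1 encodes an adhesion G protein-coupled receptor that marks rodent macrophages, and Aif1 an actin-binding protein of macrophages and microglia. Adgre1 counts at 3d were 541, 964, 554 and 749.6 after saline, 7.1, 514, 286 and 152 after MABs allo, and 86.5, 525, 409 and 1011 after MABs allo-VEGF. The 7.1 of MABs allo replicate 1 was the count of a single read. At 7d Adgre1 ranged from 97.1 to 543 after saline, from 142 to 1436 after MABs allo and from 145 to 377 after MABs allo-VEGF. Aif1 ranged at 3d from 1126 to 2642 after saline, from 213 to 1215 after MABs allo and from 443 to 2709 after MABs allo-VEGF. At 7d Aif1 ranged from 265 to 1247, from 414 to 1276 and from 627 to 809, respectively, with full overlap.

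Cd14 encodes the co-receptor for lipopolysaccharide. At 3d its counts were 379, 90.2, 254 and 309.7 after saline, 305, 224, 166 and 212 after MABs allo, and 114, 142, 247 and 361 after MABs allo-VEGF. At 7d they were 203, 503, 717 and 189 after saline, 409, 354, 205 and 340.3 after MABs allo, and 207, 191, 186 and 173 after MABs allo-VEGF. The groups overlapped at 3d, where MABs allo replicate 1, the lowest of its group in the other 9 genes, was the highest in Cd14.

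Across the 6 groups, the ratio of highest to lowest group mean was largest for C1qb (5.21), Cd163 (5.02) and C1qc (4.95), and smallest for Cd14 (2.13). For C1qb and C1qc the order was saline 7d, MABs allo 7d, saline 3d, MABs allo-VEGF 7d, MABs allo-VEGF 3d and MABs allo 3d. Csf1r was highest after saline at 3d, followed by saline 7d, MABs allo-VEGF 3d, MABs allo 7d, MABs allo-VEGF 7d and MABs allo 3d. MABs allo at 3d was also the lowest group for C1qa, Cd68 and Aif1, and MABs allo-VEGF at 7d was the lowest for Mrc1, Cd163, Adgre1 and Cd14. In none of the 10 genes were neighbouring groups in the order separated without overlap.

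The comparison of MABs allo-VEGF with MABs allo asks what the VEGF vector adds to the cells. That vector also carried truncated CD34, and whether the MABs allo of these samples carried a vector is not settled by the labels, so that VEGF, truncated CD34 and transduction cannot be told apart. At 3d, 9 of the 10 genes had a log2 fold change above 0, as had 46.7% of all genes tested, and the median was 1.13 against -0.03 over all genes. None of the 10 was a DEG by limma, DESeq2 or edgeR, against 0.00614% of all genes by limma. The 95% intervals of the C1q chains lay above 0. The log2 fold change was 1.41 for C1qb (standard error 0.53, 95% interval 0.32 to 2.5, adjusted p = 0.688), 1.35 for C1qc (0.51, 0.29 to 2.42, adjusted p = 0.704) and 1.15 for C1qa (0.45, 0.23 to 2.07, adjusted p = 0.715), all from limma. Before adjustment these 3 genes had a p below 0.05 (0.0133, 0.0148 and 0.0169 in limma), on the higher side where 3.23% of all genes did. DESeq2 gave 5 and edgeR 3 of the members such an unadjusted p. The macrophage genes had values of 1.68 for Adgre1, 1.15 for Cd163, 1.11 for Cd68, 0.99 for Mrc1, 0.98 for Aif1 and 0.94 for Csf1r, each with an interval that included 0, and -0.19 for Cd14 (-1.11 to 0.74). The groups overlapped in each of the 10 genes, whereas 0.853% of all genes were higher in MABs allo-VEGF without overlap.

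The size of these differences depended on single MABs allo samples, among them replicate 1, which had the lowest count in 9 of the 10 genes and the highest in Cd14. Without it the log2 fold change was 0.69 for C1qb, 0.77 for C1qa, 0.76 for C1qc, 0.39 for Adgre1 and 0.26 for Mrc1, still above 0 in 9 genes. MABs allo-VEGF replicate 1 was in turn the lowest of its group in all 10 genes. The epithelial genes had their highest sums in these samples, 29558 in MABs allo replicate 1 (against 9694 to 13404 in the other 3) and 28003 in MABs allo-VEGF replicate 1. The fibroblast genes had a sum of 56304 in MABs allo replicate 1 against 121286 to 304450 in the others of its group. The part of tissue make-up in the difference was not tested. Leaving out MABs allo replicate 2 made the log2 fold change larger, with 1.93 for C1qb, 1.84 for C1qc, 1.58 for C1qa, 2.39 for Adgre1 and 1.57 for Mrc1. Without the samples least like their groups at 3d (saline replicate 8 and MABs allo-VEGF replicate 2, an alternative chosen after seeing the data) the values were 1.17 for C1qb, 1.15 for C1qc and 0.95 for C1qa. Without saline replicate 6 and MABs allo-VEGF replicate 4, the values in the same order were 1.35, 1.15 and 0.99. An earlier account of these data had set these samples apart, which the study's text and the labels do not. By their mean r (0.889 and 0.872) they were not the least like their groups.

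At 7d the direction was the opposite, and each of the 10 genes had a log2 fold change below 0 for MABs allo-VEGF against MABs allo, with a median of -0.74 against -0.02 over all genes. None was a DEG by limma, DESeq2 or edgeR, and 0% of all genes were DEGs by limma. Cd163 had the lowest value, -1.46 (standard error 0.64, 95% interval -2.78 to -0.13, adjusted p = 1.0 from limma), and was alone in having an unadjusted p below 0.05 (0.0326 in limma), on the lower side where 1.77% of all genes did. DESeq2 gave 2 and edgeR 1 of the members such an unadjusted p. Mrc1 followed with -1.04, Adgre1 with -0.89, C1qc with -0.87, Cd14 and C1qb with -0.74 each, Cd68 with -0.59, C1qa with -0.55, Csf1r with -0.27 and Aif1 with -0.19, and each of these intervals included 0. Groups overlapped in each gene, whereas 1.09% of all genes were lower in MABs allo-VEGF without overlap. MABs allo replicate 9 was the lowest of its group in 9 of the 10 genes, and without it Cd163 had -1.85, C1qb -1.06 and C1qc -1.215. MABs allo replicate 13 was the highest of its group in 6 of the 10 genes, and without it Cd163 had -0.96, C1qb -0.38 and C1qc -0.50. This sample also had the highest summed count of 6 adipocyte genes, 37944, against 1139 to 23276 in the other MABs allo samples and 612 to 3913 after MABs allo-VEGF. The adipocyte genes had a median log2 fold change of -4.69 and the 10 monocyte and neutrophil genes tested one of -1.86 in the same comparison, with 0 DEGs in either list (limma), and their part in the result was not tested.

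An interaction term tested whether the VEGF difference itself changed between the days. In each of the 10 genes the log2 difference at 3d minus that at 7d was above 0. It was 2.61 for Cd163 (standard error 0.91, adjusted p = 0.941), 2.22 for C1qc (0.73, adjusted p = 0.941), 2.15 for C1qb (0.75, adjusted p = 0.941), 2.04 for Mrc1 (0.90, adjusted p = 0.941) and 1.69 for C1qa (0.63, adjusted p = 0.941) in limma, and none of the 10 passed, against 0.00614% of all genes. These 5 had an unadjusted p below 0.05, as had 2.98% of all genes on the positive side, with 6 of the members in DESeq2 and 6 in edgeR. The opposite directions on the 2 days are therefore not shown to differ once all genes are adjusted for.

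**Figure D2:**
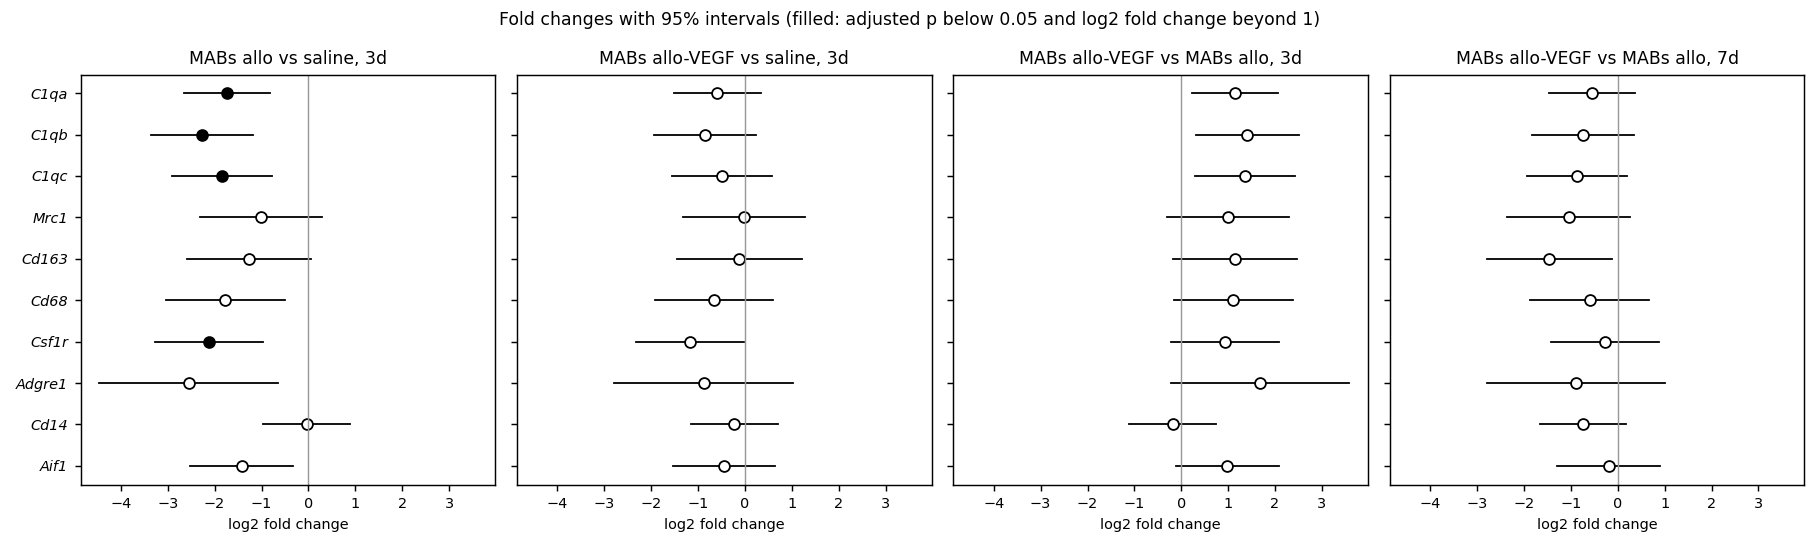
Log2 fold change (x axis) of the 10 genes with 95% intervals in 4 comparisons, with filled points for DEGs. C1qa, C1qb, C1qc and Csf1r are filled for MABs allo against saline at 3d, and 9 of 10 points lie right of 0 for MABs allo-VEGF against MABs allo at 3d while all 10 lie left of 0 at 7d.

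The comparisons with saline set either cell injection beside saline after the same injury, and at 3d these groups also differed in depth as given above. MABs allo samples are shared between the comparison above and the next, so their directions are not independent. At 3d, 4 of the 10 genes were downregulated after MABs allo, against 2.86% of all genes. C1qb fell by 2.26 on the log2 scale (standard error 0.53, adjusted p = 0.0109 from limma), Csf1r by 2.11 (0.56, adjusted p = 0.0175), C1qc by 1.85 (0.52, adjusted p = 0.0214) and C1qa by 1.74 (0.45, adjusted p = 0.0156). Adgre1 had -2.55 (adjusted p = 0.0616), Cd68 -1.77 (adjusted p = 0.0529), Aif1 -1.43 (adjusted p = 0.0692), Cd163 -1.27 (adjusted p = 0.178), Mrc1 -1.01 (adjusted p = 0.279) and Cd14 -0.04 (adjusted p = 0.964), all from limma. Groups did not overlap, with MABs allo lower, for C1qb, Csf1r, Cd68 and Adgre1, that is in 4 of the 10 genes against 5.22% of all genes. With counts scaled to the same total per sample, 7 of the 10 were DEGs, and the calls over all genes went from 1531 higher and 466 lower (76.7% higher) to 1102 higher and 1021 lower (51.9% higher), with a median of all genes of -0.19 in place of 0.07. C1qb had -2.54 after this scaling. Without MABs allo replicate 1, or without saline replicate 8, 1 of the 10 remained a DEG, namely C1qb (log2 fold change -1.54, adjusted p = 0.0387, and -2.12, adjusted p = 0.0484, from limma). Without MABs allo replicate 2 or replicate 4, 6 were DEGs. Over all genes 1997 were DEGs with all samples, 369 without saline replicate 8, and 369 to 2816 with each sample left out in turn. Without saline replicate 8 the log2 fold changes of Csf1r, C1qc and C1qa were -1.79, -1.67 and -1.50 (adjusted p = 0.0828, adjusted p = 0.0852 and adjusted p = 0.0743 from limma).

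After MABs allo-VEGF none of the 10 genes was a DEG against saline at 3d by limma, DESeq2 or edgeR (0.0307% of all genes by limma), and 1 had an unadjusted p below 0.05 in each tool, on the lower side where 4.94% of all genes did in limma. This was Csf1r with a log2 fold change of -1.18 (95% interval -2.33 to -0.02, adjusted p = 0.269 from limma). C1qb had -0.85, C1qa -0.59 and C1qc -0.50. The number of DEGs over all genes in this comparison went from 5 to 2213 without saline replicate 6 and MABs allo-VEGF replicate 4, and none of the 10 was among them, with Csf1r at -1.63 (adjusted p = 0.0871 from limma). Without saline replicate 8 and MABs allo-VEGF replicate 2 it was 0.

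At 7d none of the 10 genes was a DEG against saline, after MABs allo (0% of all genes) or after MABs allo-VEGF (0% of all genes), by limma, DESeq2 or edgeR. After MABs allo 0 of the 10 had an unadjusted p below 0.05 in each of the 3 tools, and the log2 fold changes ran from -1.03 for Cd163 to 0.79 for Adgre1. After MABs allo-VEGF 2 had such a p in limma, on the lower side where 3.03% of all genes did, and 3 in each of DESeq2 and edgeR. Cd163 had -2.49 (standard error 0.64, 95% interval -3.81 to -1.16, unadjusted p = 0.000746, adjusted p = 0.433 from limma) and C1qc -1.19 (0.52, -2.25 to -0.12, adjusted p = 0.76 from limma). Cd163, C1qc, C1qb and Cd68 were lower in each MABs allo-VEGF sample than in each saline sample, 4 of 10 genes against 3.12% of all genes. In Cd163 the highest MABs allo-VEGF count, 628, came from replicate 6 and the lowest, 168, from replicate 7, the 2 samples labelled as recovered.

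Between the days, the C1q chains were DEGs in the MABs allo group. Whether the groups differ in their change over time was tested for the MABs groups alone (the interaction above). MABs allo had 3 DEGs among the 10 genes, lower at 3d than at 7d, against 6.05% of all genes. By limma the log2 difference was -2.61 ± 0.53 (standard error) for C1qb (adjusted p = 0.000844), -2.38 ± 0.52 for C1qc (adjusted p = 0.00149) and -1.41 ± 0.45 for C1qa (adjusted p = 0.0194). Without MABs allo replicate 1 at 3d or replicate 13 at 7d, 2 of the 10 were DEGs, C1qb and C1qc, and without MABs allo replicate 2 at 3d 5 were. Over all genes 3751 were DEGs with all samples, and 3117 to 3986 with each sample left out in turn. Csf1r had -1.09 (adjusted p = 0.145) and Aif1 -0.46 (adjusted p = 0.549). In saline none of the 10 was a DEG between the days by limma, DESeq2 or edgeR (3.19% of all genes by limma), and 1 had an unadjusted p below 0.05 in each tool, on the higher side at 3d where 11.5% of all genes did in limma. This was in limma Aif1, with 1.37 (adjusted p = 0.151). Of the C1q chains in saline, C1qc had -0.84 (adjusted p = 0.398 from limma) and C1qb -0.61, lower at 3d as in MABs allo, whereas C1qa had 0.13. Each C1qc count of saline at 3d lay below each at 7d, in 1 of the 10 genes against 4.92% of all genes. In MABs allo-VEGF none was a DEG by limma (15.3% of all genes). Cd163 had 1.52 and Mrc1 1.42, with adjusted p = 0.0973 and adjusted p = 0.116 from limma, and DESeq2 called Cd163 (1.70, adjusted p = 0.0284). Without MABs allo-VEGF replicate 1 at 3d both were DEGs in limma (2.03, adjusted p = 0.0358, and 1.91, adjusted p = 0.0449).

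Size factors cancel in ratios of normalized counts within a sample, whereas counting error does not. The ratios are given here as a description. The 0.9 and 1.22 given below came from MABs allo replicate 1 at 3d. This sample had 27 reads of C1qb, 30 of Aif1 and 33 of C1qa. The ratio of C1qb to Aif1 lay between 0.9 and 3.47 in the 12 samples at 3d and between 2.89 and 24.3 at 7d, with medians of 1.76 and 6.22. C1qb to Csf1r had a median of 1.57 at 3d (0.991 to 2.72) and 2.92 at 7d (2.01 to 7.73). Within C1q, the ratio of C1qa to C1qb had a median of 0.475 at 3d (0.327 to 1.22) and 0.298 at 7d (0.132 to 0.362), while C1qc to C1qb had 0.791 and 0.743. Csf1r to Cd68 had medians of 2.74 and 3.12. C1qb counts therefore stood higher beside Aif1, Csf1r and C1qa at 7d by the median of each treatment, and the ranges of the days overlapped in each ratio. The ratio of Cd163 to Csf1r at 7d was 0.236 to 0.375 after MABs allo-VEGF, below the 0.789 to 1.87 of saline and the 0.411 to 1.96 of MABs allo.

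**Figure D3:**
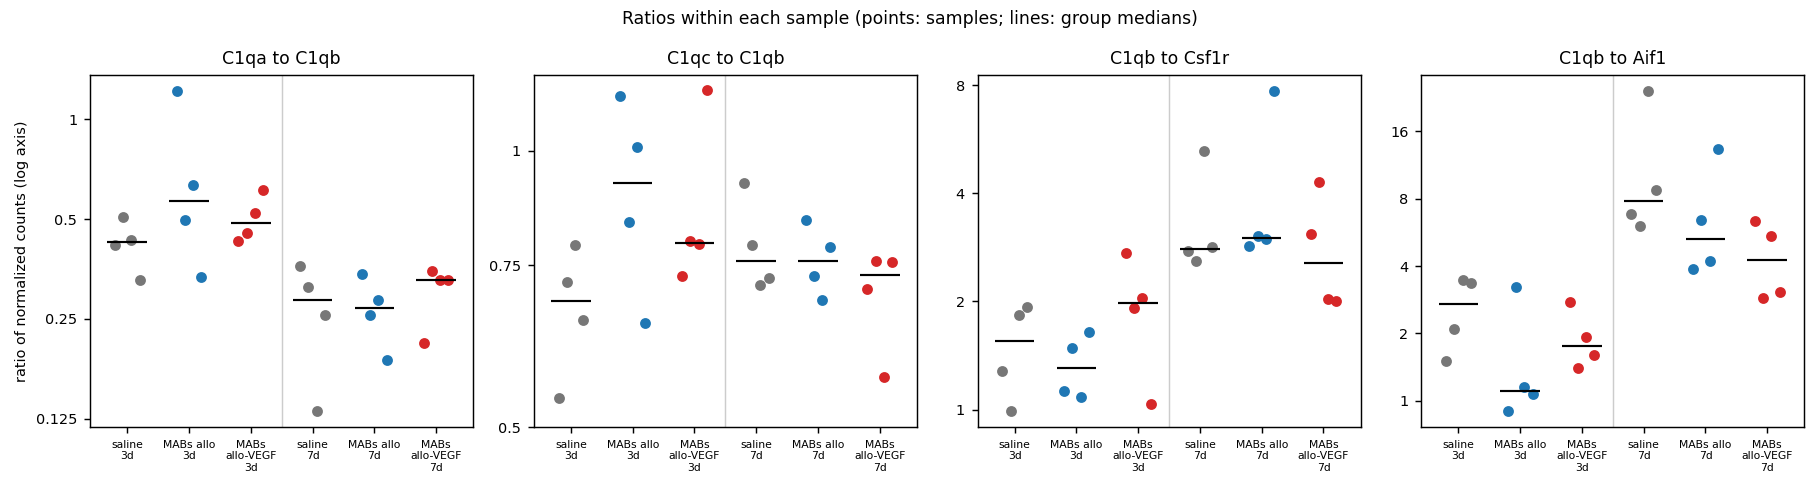
Ratio of normalized counts within each sample (log axis) by group, with a line at the group median. C1qb to Csf1r has medians of 1.57 at 3d and 2.92 at 7d, C1qb to Aif1 1.76 and 6.22, C1qa to C1qb 0.475 and 0.298, and C1qc to C1qb 0.791 and 0.743.

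Within groups, the genes varied together except Cd14. Over the 24 samples, the 36 pairs without Cd14 had Pearson r between 0.58 and 0.96 for the deviations from the group means (median 0.79), and the 9 pairs with Cd14 between -0.23 and -0.05. The highest were C1qb with C1qc (0.96), C1qb with Cd163 (0.93) and Csf1r with Adgre1 (0.90), and the lowest without Cd14 was Cd163 with Aif1 (0.58). The samples share library preparation, and depth and tissue make-up differ between them as given above, so that r describes these samples and was not tested. The genes outside the 10 whose log2 counts were most like the mean of the C1q chains over the 24 samples were Alox5ap (r = 0.94), which serves leukotriene synthesis, Clec10a (0.94), a lectin of macrophages and dendritic cells, Fcna (0.92), a ficolin, Cpa3 (0.90), a protease of mast cells, and Lyve1 (0.90), a hyaluronan receptor of lymphatic vessels and some tissue macrophages.

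**Figure D4:**
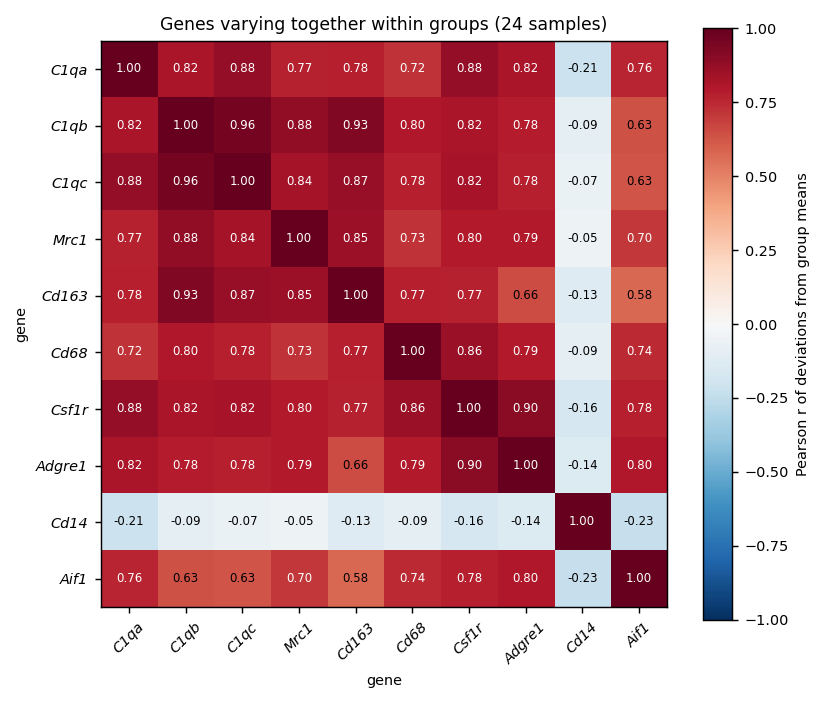
Pearson r of the deviations from group means for each pair of the 10 genes over 24 samples, with the value in each cell. The 9 genes other than Cd14 have r between 0.58 and 0.96 with each other, and the Cd14 row lies between -0.23 and -0.05.

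Beside C1q stand its proteases and the rest of the complement. For MABs allo against saline at 3d, 2.86% of all genes were DEGs on the lower and 9.4% on the higher side. C1s and C1r, the proteases that C1q carries, were both downregulated after MABs allo at 3d against saline. C1s fell by 2.02 on the log2 scale (1758 ± 949 against 6801 ± 3193, SD, n = 4 each, adjusted p = 0.0128 from limma) and C1r by 1.14 (6271 ± 3190 against 12820.0 ± 2973, SD, n = 4 each, adjusted p = 0.0348 from limma). They were 2 of 7 genes of the C1 proteases and classical pathway that passed, and C3, the central component, had 0.22 (adjusted p = 0.902 from limma). Of 10 complement regulators 2 were downregulated. The C1 inhibitor gene Serping1 (-2.03, adjusted p = 0.0152 from limma) had 4854 ± 2057 after MABs allo and 24690.0 ± 22490.0 after saline, and the clusterin gene Clu (-1.50, adjusted p = 0.0346 from limma) had 5751 ± 1397 and 24410.0 ± 28950.0 (SD, n = 4 each). The summed count of the regulators was 130786 in saline replicate 8 and 24303 to 40788 in the other saline samples. Of 4 tested genes of the terminal pathway C7 was upregulated (2.81, adjusted p = 0.0129 from limma). Without saline replicate 8, 0 of the 7 classical pathway genes (C1s -1.74, adjusted p = 0.0621, and C1r -1.01, adjusted p = 0.124) and 0 of the 10 regulators (Serping1 -1.49, adjusted p = 0.0814, and Clu -0.80, adjusted p = 0.161) were DEGs in limma, and C7 was (2.85, adjusted p = 0.0451). Over all genes that fit had 369 DEGs, against 1997 with all samples. Serping1, Clu and the proteases are also made by fibroblasts and other stromal cells. Of 6 fibroblast genes 2 were downregulated in the same comparison, Lum (-1.69, adjusted p = 0.0218) and Dcn (-1.29, adjusted p = 0.0426), and the list's summed count was 56304 to 304450 after MABs allo against 342793 to 517564 after saline. The part of fibroblasts in the complement result was not tested.

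Further macrophage genes were downregulated at 3d after MABs allo. Over all genes 2.86% were DEGs on the lower and 9.4% on the higher side. Of 24 general macrophage and myeloid genes 7 were downregulated and 0 upregulated against saline. The 24 had a median log2 fold change of -0.96 against 0.07 over all genes. Among the 7 were Cd53 (-2.56, adjusted p = 0.00964), a tetraspanin of leukocytes, and Lyz2 (-2.22, adjusted p = 0.0159), the lysozyme of myeloid cells, from limma. Of 14 tested genes of tissue-resident macrophages 4 were downregulated, with Folr2 (-2.35, adjusted p = 0.0168) and Clec10a (-2.03, adjusted p = 0.0283) the lowest. Without saline replicate 8, 1 of the 24 was a DEG, Cd53 (-2.30, adjusted p = 0.0486 from limma), and 0 of the 14, where Folr2 had -2.12 (adjusted p = 0.0737) and Clec10a -1.71 (adjusted p = 0.118). Leaving out that sample took the DEGs over all genes from 1997 to 369. Ptprc, the pan-leukocyte gene, had 897 ± 365 after MABs allo and 757 ± 464 after saline (SD, n = 4 each, log2 fold change 0.32, adjusted p = 0.625 from limma). None of the 10 monocyte and neutrophil genes tested, of the 11 phagocytic and repair genes or of the 9 CSF1R ligand and transcription factor genes passed in limma. In the last list Csf1 had -0.26, Il34 -0.93 and Spi1 -1.18 (adjusted p = 0.616, adjusted p = 0.212 and adjusted p = 0.168). Of the 6 tested partners of Cd14, Lbp, which hands lipopolysaccharide to CD14, was downregulated (-2.08, adjusted p = 0.016 from limma, and -1.51, adjusted p = 0.0848, without saline replicate 8) and Tlr4 had 0.33 (adjusted p = 0.686).

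In the same comparison 9.4% of all genes were DEGs on the higher and 2.86% on the lower side, and genes of other cell types were called as follows. Of 7 mast cell genes 6 were downregulated, with summed counts of 241 to 376 after MABs allo against 596 to 2309 after saline. Of 4 striated muscle genes 2 were upregulated, Tnnt3 (1.55, adjusted p = 0.0345) and Mylpf (1.42, adjusted p = 0.0483), with summed counts of 58754 to 266605 against 36072 to 135174. Of 7 epithelial genes Krt14 was upregulated (4.15, adjusted p = 0.0433), and of 9 endothelial genes Tie1 was downregulated (-1.33, adjusted p = 0.0142), all from limma. None of 5 smooth muscle, 6 adipocyte, 8 lymphocyte or 5 dendritic cell genes tested passed. Without saline replicate 8, 3 mast cell genes and 0 genes of the fibroblast, striated muscle, epithelial and endothelial lists were DEGs in limma. The DEGs over all genes then fell from 1997 to 369, so these lower counts are not particular to the lists. The B cell genes Cd79a and Ms4a1 had 0 reads in saline and MABs allo-VEGF at 3d, so that the samples held few lymphocyte reads (summed counts of 32.4 to 278 at 3d). The part of these cell types in the macrophage result was not tested.

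In the comparison of MABs allo-VEGF with MABs allo no gene of these lists was a DEG at 3d or 7d by limma. At 3d, 22 of the 24 general macrophage genes and 12 of the 14 resident genes had a log2 fold change above 0, with medians of 0.76 and 0.35, as had 6 of 6 fibroblast genes (0.68) and 6 of 7 mast cell genes (1.04). C1s had 0.75 (adjusted p = 0.862) and C1r 0.61 (adjusted p = 0.85), from limma. At 7d, 5 of the 24 and 3 of the 14 were above 0, with medians of -0.52 and -0.46. Hmox1, the haem-degrading enzyme that follows uptake through CD163, had 784 ± 432 after MABs allo-VEGF and 4309 ± 5180 after MABs allo at 7d (SD, n = 4 each, log2 fold change -1.88, adjusted p = 1.0 from limma), a difference within the spread of the samples.

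In MABs allo the leukocyte gene Ptprc was higher at 3d than at 7d (1.33, adjusted p = 0.0167 from limma), where the C1q chains were lower. Most of the 24 general macrophage and myeloid genes went the other way, with 6 above 0 and a median of -0.51 against 0.06 over all genes. Of the 24, 1 (Ptprc) was called higher and 2 lower, against 17% and 6.05% of all genes. The lower ones were Cd74 (-2.13, adjusted p = 0.000684) and Cd53 (-1.75, adjusted p = 0.0252), from limma. Ptprc was also higher at 3d in MABs allo-VEGF (2.59, adjusted p = 0.000259 from limma), where C1qa had 0.29, C1qb -0.46 and C1qc -0.15 and none was a DEG. There 23 of the 24 genes were above 0, with a median of 0.75. Of them 3, Ptprc included, were called higher and 0 lower, against 13.1% and 2.24% of all genes. Trem2, a lipid receptor of phagocytes, was higher at 3d in saline (2.74, adjusted p = 0.0331 from limma), with 512 ± 137 against 107 ± 86.3 (SD, n = 4 each).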

How the data were processed

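Urethral RNA was sequenced by the authors as QuantSeq 3ʹ libraries with single-end reads. Adapter-trimmed reads were aligned to Rnor6.0 with HISAT2, multi-mapped reads were discarded, and reads per gene were counted with HT-seq Count. The deposited signal is the count of a gene divided by the DESeq2 size factor of the sample, named a normalized gene count. The step of 1 read gave whole numbers for 100% of the values in each sample, so reads were recovered for the count tests. Samples had 2170695 to 10166052 reads on genes, which sets the counting error, and that covers counting error only. Groups and replicates were taken from the labels. That replicates are separate rats follows from the study's design. Each p-value tests a difference of group means against a spread between samples that was estimated over the 6 groups together.

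The log2 of each normalized gene count plus 1 entered a single limma (3.58.1, R 4.3.3) model of the 6 groups with a mean-variance trend. Tests were two-sided and adjusted by Benjamini-Hochberg over the 16287 genes whose mean was 2 or more, and the code was tested on simulated data. Alternatives were a filter at 10 or none, a pseudocount of 5, scaling to the same total, DESeq2 1.42.0 and edgeR 4.0.16 (TMM) on the recovered reads, 2 sets of 22 samples, a replicate block and leaving out each sample. No shrinkage of fold changes, as used by the study, was applied. The members, gene lists and tests were chosen with earlier results of these data known. Named genes were the members, fixed partners of C1q, CSF1R and CD14, at most 2 DEGs with the largest change per list and comparison, and the 5 genes most like C1q (no fold is given for a gene with a group at its detection limit). Promoters were taken from RefSeq (GRCr8).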

Additional observations from a re-analysis of the deposited data

Results flagged for a closer look

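Of the 60 sets of 4 samples (10 genes in 6 groups), 5 held a sample whose gap to the nearest other sample was large against the range of the group (Dixon's test at the 95% level), where chance gives about 1 in 20. C1qc had 3642 and Mrc1 had 2391 in MABs allo-VEGF replicate 6 at 7d, each the highest of its group, and this sample is labelled as recovered. Aif1 had 627 in MABs allo-VEGF replicate 11 at 7d, the lowest of a narrow group. Cd68 had 56.8 in MABs allo replicate 1 at 3d, the lowest of its group. Csf1r had 5569.8 in saline replicate 8 at 3d, the highest of its group.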

How the results depend on the processing

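For the 10 genes, MABs allo-VEGF against MABs allo at 3d, at 7d and in the interaction had 0 DEGs under each alternative, and the cause of the changes that follow was not tested. MABs allo against saline at 3d had 4 DEGs among the 10, 7 after scaling to the same total, and 1 to 6 with each sample left out in turn. MABs allo at 3d against 7d had 2 to 5 and MABs allo-VEGF 0 to 2 with samples left out, and the latter 1 with DESeq2.

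Over all genes, MABs allo-VEGF against MABs allo at 3d had 1 DEG, 2 with a pseudocount of 5, 3 without a filter, 0 with a filter at 10, DESeq2 or edgeR, 3 with 22 samples (without saline replicate 6 and MABs allo-VEGF replicate 4 at 3d) and 0 to 4 with samples left out. At 7d it had 0, 4 with DESeq2 and 0 to 1 with samples left out. The interaction had 1 and 0 with a pseudocount of 5, a filter at 10, scaling, DESeq2, edgeR or 22 samples, and 0 to 2 with samples left out. MABs allo-VEGF against saline at 3d had 5 DEGs, 181 with a pseudocount of 5, 1 with a filter at 10 or edgeR, 0 after scaling, 397 with DESeq2, 2213 with 22 samples and 0 to 1258 with samples left out, and at 7d 26 with DESeq2. Saline at 3d against 7d had 520.0, 1386 with DESeq2, 988 with edgeR, 31 with 22 samples and 22 to 1281 with samples left out. With samples left out, MABs allo against saline had 369 to 2816 at 3d and 0 to 1 at 7d, and 3d against 7d had 3117 to 3986 in MABs allo and 1746 to 3217 in MABs allo-VEGF. Without the 2 samples least like their groups, chosen after seeing the data, MABs allo against saline at 3d had 430.0 DEGs in all and 1 among the 10, MABs allo-VEGF against saline at 3d 0, and saline at 3d against 7d 1347. There C1qa had -0.11 in the last comparison and Csf1r -0.10 in MABs allo-VEGF at 3d against 7d, both with the sign turned.

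Log2 fold changes that turned their sign were not called. For MABs allo-VEGF against MABs allo at 7d, Csf1r had 0.035 without the samples labelled as recovered. With 22 samples, Cd14 had 0.20 for MABs allo against saline at 3d. For MABs allo-VEGF against saline at 3d, Mrc1 had 0.31 with DESeq2, 0.20 with edgeR and 0.070 with 22 samples, and Cd163 0.10 with DESeq2. For MABs allo-VEGF at 3d against 7d, Csf1r had -0.056 after scaling and -0.22 with 22 samples, and Cd14 -0.13 and -0.25. With samples left out, values ran from -0.48 to 0.072 for Cd14 in MABs allo-VEGF against MABs allo at 3d and from -0.49 to 0.11 for Csf1r at 7d. For MABs allo against saline they ran from -0.48 to 0.20 for Cd14 at 3d. At 7d they ran from -0.49 to 0.14 for C1qa, -0.63 to 0.057 for C1qb, -0.69 to 0.028 for C1qc, -0.040 to 0.40 for Mrc1, -0.54 to 0.079 for Cd68, -0.40 to 0.24 for Cd14 and -0.032 to 0.75 for Aif1. For MABs allo-VEGF against saline they ran from -0.50 to 0.46 for Mrc1, -0.57 to 0.39 for Cd163, -0.67 to 0.032 for Cd14 and -0.82 to 0.046 for Aif1 at 3d, and from -0.53 to 0.29 for Adgre1 and -0.22 to 0.52 for Aif1 at 7d. For 3d against 7d they ran from -0.17 to 0.33 for C1qa in saline, from -1.20 to 0.12 for Mrc1 and -0.81 to 0.057 for Aif1 in MABs allo, and from -0.36 to 0.22 for C1qc, -0.26 to 0.61 for Csf1r and -0.25 to 0.30 for Cd14 in MABs allo-VEGF.

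With the replicate number as a block, MABs allo-VEGF against MABs allo at 3d had 1 DEG in all, 0 of them among the 10. Each number occurs once in both groups, so the block leaves the fold changes as they were (C1qb 1.41) and can alter only their standard errors and p-values. Deviations of same-numbered samples had r of 0.222, 0.15, 0.0734 and 0.254, and those of different-numbered samples had r from -0.225 to 0.2. MABs allo-VEGF replicates 1, 2 and 4 correlated best with the MABs allo sample of the same number, and replicate 3 with MABs allo replicate 1. No label ties the numbers to a batch, so whether they pair the samples is not settled. No paired analysis was possible for the other comparisons because their groups share fewer than 2 numbers. Depth limits the low counts most, as for Adgre1 in MABs allo replicate 1 at 3d, which rests on 1 read, and the 4 samples of a group set the width of the intervals.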
